A study of Mus musculus with 8 samples.

Results

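The Forkhead genes encode transcription factors that share the forkhead DNA-binding domain. They were taken as every record whose symbol read Fox, a letter from a to s, a number and at most 1 further letter, without Foxj1, and 43 genes were found among 23997 symbols. Each had 1 record. The 43 were read across 8 RNA-seq libraries of embryonic mouse lung. Of these genes, 26 reached 1 FPKM (fragments counted per transcript, scaled by transcript length and by library size) in at least 1 library and 21 reached 5 FPKM. The other 17 stayed below 1 FPKM in all 8 libraries, and 6 of them (Foxb1, Foxd4, Foxe3, Foxi1, Foxi2 and Foxi3) were listed at 0 throughout.

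Forkhead factors divide the developing lung by cell layer. FOXA1 and FOXA2 are pioneer factors of the gut endoderm and act in overlapping fashion in the lung epithelium, where FOXP1, FOXP2 and FOXP4 act mainly as repressors. FOXF1 and FOXF2 belong to the mesenchyme, where Foxf1 responds to the epithelial signal Sonic hedgehog and is needed for the lung's vessels. FOXO factors respond to insulin and PI3 kinase signalling, and FOXM1 drives genes of mitosis.

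All libraries came from mice of strain C57BL/6 that received tamoxifen to induce the ribosome label. Translating ribosome affinity purification (TRAP) recovers mRNA on tagged ribosomes of a chosen cell type, here by immunoprecipitation of the ribosomal protein L10. Wild-type lungs gave a TRAP library and a whole lung homogenate at embryonic day 14 (E14) and the same pair at E17, with 1 library each. At E16, 2 TRAP libraries were from wild type and 2 from Sox9 mutant embryos. The labels name neither the driver that restricts the tag, nor the lesion in Sox9, nor how many embryos were pooled, and E13 in the titles of the E16 libraries is unexplained. Every title begins with Sox9, those of wild type and whole lung included, without saying what the name stands for there. The series design calls the E14 reference the supernatant of the pulldown, where its own label says homogenate. The labels do not tie replicates to separate embryos either, so a p-value may reflect technical spread alone.

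Between 9783768 and 21500523 fragments per library, inferred from the deposited confidence bounds, lay behind the values. Sox9 read 35.9 and 36.4 FPKM in wild-type TRAP at E16 but 12.8 and 11.03 in mutant TRAP (log2 -1.53, adjusted p = 0.000153), lower in both libraries labelled mutant. Of the marker lists, 12 of 12 epithelial genes were higher in TRAP. Lower were 12 of 12 mesenchymal, 12 of 12 endothelial, 8 of 8 smooth muscle and pericyte and 7 of 7 tested leukocyte genes. Of all records, 23.6% were higher and 17.1% lower. Only genes averaging at least 1 FPKM were tested. Some, such as Csf1r (0.151 and 0.247 FPKM in TRAP, 3.98 and 5.23 in whole lung), reached that average only through whole lung. The counts of lower genes are therefore given as a description only. Mesenchymal RNA was not absent from TRAP. The summed level of its 12 markers there was 327 FPKM at E14 and 330.5 at E17, against 1480 and 1938 in whole lung. In whole tissue and in the pulldown, fewer cells of a type and less RNA per cell cannot be told apart. A microRNA record, Mir762, held 50.05% of the FPKM total of wild-type replicate 1 and 34.0% of that of E17 TRAP, which bears on any rescaling to a common total.

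A few members carried most of the Forkhead signal, and their makeup differed between the fractions. Foxa1, Foxa2 and Foxp4 together made up between 54.2% and 66.9% of the summed Forkhead FPKM in the 6 TRAP libraries, against 26.2% and 27.7% in whole lung at E14 and E17. Foxf1, Foxf2 and Foxl1 made up 32.8% and 33.5% of the sum in whole lung and between 1.41% and 3.64% in TRAP. FPKM is scaled by transcript length, so these levels can be set against each other.

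**Figure D1:**
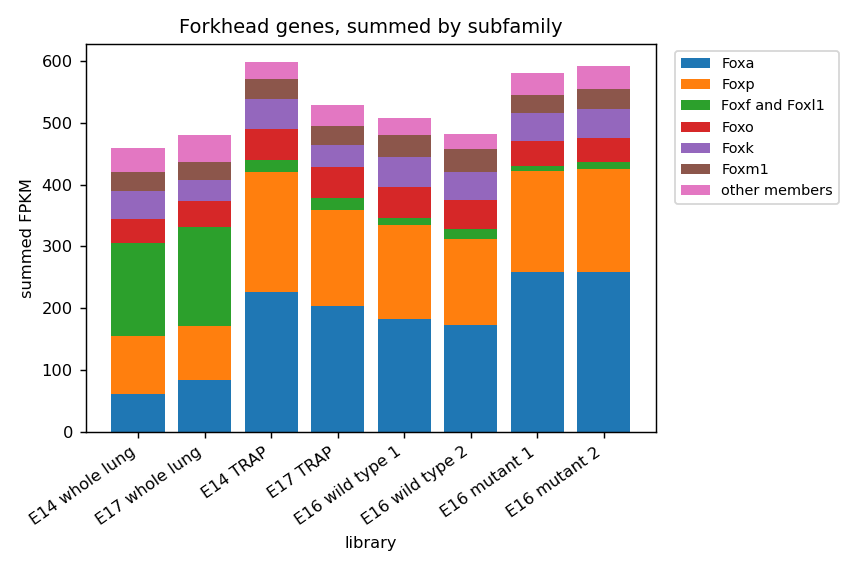
Summed FPKM of the 43 Forkhead genes in each of the 8 libraries, stacked by subfamily. The Foxa segment stands at 61.2 and 83.1 FPKM in whole lung and between 173 and 259 FPKM in TRAP, and the segment of Foxf with Foxl1 stands at 151 and 161 FPKM in whole lung and between 8.16 and 20.3 FPKM in TRAP.

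Setting TRAP beside whole lung shows which Forkhead mRNAs sat on the tagged ribosomes more, or less, than in the organ at large. The 4 libraries of E14 and E17 were fitted together with stage as a term, so the p-values measure how far the stages disagree. Of 22 members with a mean of at least 1 FPKM, 7 were higher in TRAP, 6 were lower and 9 did not pass at an adjusted p of 0.05. That is 59.1% of the tested members, where 40.7% of 12320 records passed (23.6% higher and 17.1% lower). The median log2 difference was 0.12 over the members and 0.05 over all records.

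Of 9 genes listed as epithelial, 7 were tested, 5 were higher in TRAP and Foxp1 and Foxq1 were not called. Foxa1 and Foxa2 had the largest differences of these on log2(FPKM + 1). By plain ratio of TRAP to whole lung the order differed. Foxa3 led at E14 (3.85, with Foxa2 at 3.755 and Foxa1 at 3.66), and Foxp2 at E17 (2.63, with Foxa2 at 2.62 and Foxa1 at 2.34). Foxa1 (chromosome 12, 57540632 to 57546121 in mm10) had TRAP values of 133 (E14) and 117 FPKM (E17) and whole lung values of 36.3 and 50.1. Foxa2 (chromosome 2, 148042877 to 148046969) had 88.8 and 82.9 FPKM in TRAP, and 23.6 and 31.7 in the homogenates. Both TRAP libraries were above both whole lung libraries for each gene. The log2 difference, on log2(FPKM + 1), was 1.53 for Foxa1 (SE 0.16, adjusted p = 0.00229) and 1.61 for Foxa2 (SE 0.14, adjusted p = 0.00141), higher at 2 of 2 stages. Foxa3, a Foxa gene better known from liver, was far less abundant, with 5.04 and 1.31 FPKM at E14 and 3.33 and 1.35 at E17, and passed too (log2 1.13, adjusted p = 0.0102).

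The Foxp genes followed to unequal degrees. Foxp4 (chromosome 17, 47867133 to 47924632), the most abundant of them, had TRAP values of 130.4 and 86.6 FPKM and homogenate values of 60.3 and 51.5, E14 first. Foxp2 (chromosome 6, 14901349 to 15441977) had 43.5 and 44.2 FPKM in TRAP, with 19.3 and 16.8 in whole lung. TRAP was above whole lung for both genes at both stages, by a log2 of 0.92 for Foxp4 (SE 0.12, adjusted p = 0.00387) and 1.24 for Foxp2 (SE 0.11, adjusted p = 0.00142). Foxp1, which endothelium and mesenchyme also express, had 19.96 against 14.6 FPKM and 24.1 against 19.8, and did not pass (log2 0.35, adjusted p = 0.0549). Foxp3, the regulatory T cell factor, peaked at 0.0453 FPKM, in E14 TRAP.

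Mesenchymal members stood on the other side. Foxf1 had TRAP values of 13.9 and 12.2 FPKM, E14 first, where whole lung had 103 and 91.3, so whole lung was 7.35-fold and 7.47-fold higher. Foxf2 had 4.33 and 6.08 FPKM in TRAP, where whole lung had 38.5 and 60.7, a gap of 8.90-fold and 9.98-fold. The fractions did not overlap for either gene, and the log2 differences were -2.80 (SE 0.10, adjusted p = 0.000275) and -3.01 (SE 0.12, adjusted p = 0.000345). Foxl1, a mesenchymal gene known from the gut wall, had 1.97 against 9.77 FPKM and 0.967 against 8.75 (log2 -2.08, adjusted p = 0.00141). Foxs1, known from pericytes, was listed at 0 in E14 TRAP against 1.25 FPKM in whole lung, and at 0.254 against 3.01 at E17, where 6.0 fragments lay behind the TRAP value. It passed the filter only through whole lung, where it is high, so its call (adjusted p = 0.00836, lost with no filter at 0.176, within 2.36e-09 to 0.287 over its alternatives) is given as a description only. Of the 8 genes listed as mesenchymal, Foxf1, Foxf2 and Foxl1 were lower besides Foxs1, and Foxc1, Foxc2, Foxd1 and Foxd2 had means too low to be tested.

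Members with known roles in endothelium were few and low, apart from Foxf1 and Foxp1. Foxo1, which keeps vessels quiescent, was lower in TRAP, at 3.21 and 5.20 FPKM where whole lung had 6.29 and 7.51 (log2 -0.62, SE 0.16, adjusted p = 0.0296). Foxc1 had 0.605 against 1.67 FPKM and 0.239 against 0.591, and Foxc2, a gene of lymphatic vessels, 0.219 against 1.07 and 0.151 against 0.850. Both Foxc genes read higher in whole lung at both stages, without a test.

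Foxo genes were found on both sides, and of the Foxn genes Foxn2 was lower in TRAP and none was called higher. Foxo3 had 18.02 and 18.1 FPKM in TRAP and 10.6 and 12.6 in whole lung (log2 0.60, adjusted p = 0.0142). Foxo6 had 4.33 against 1.50 and 5.62 against 2.54 FPKM (log2 1.00, adjusted p = 0.00831), and Foxn2 went the other way with 2.64 against 7.32 and 3.63 against 7.67 (log2 -1.05, adjusted p = 0.00623). The Foxo subfamily was divided, with Foxo3 and Foxo6 higher in TRAP, Foxo1 lower, and Foxo4 not called at 23.6 against 19.2 and 22.4 against 19.5 FPKM (log2 0.24, adjusted p = 0.126). Foxm1 had 32.4 against 31.1 and 30.9 against 29.1 FPKM, a log2 difference of 0.07 (SE 0.10, adjusted p = 0.595). Foxq1, listed as epithelial but with 0.242 and 1.11 FPKM in TRAP below 0.634 and 3.18 in whole lung, did not pass either (log2 -0.69, adjusted p = 0.0715). It was called lower in TRAP by limma-voom (log2 -1.55, adjusted p = 0.00928). Limma with a common total called it lower too (-0.97, 0.00181), but not with no filter (0.327). It passed the filter only through E17 whole lung, so these calls are a description only.

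The remaining tested members were not called. Foxk1, which with Foxk2 regulates metabolic genes, had 8.58 and 7.00 FPKM in TRAP and 10.9 and 8.99 in whole lung (log2 -0.32, adjusted p = 0.0987). Foxk2 had 39.6 and 28.2 FPKM, and 34.6 and 25.4 (log2 0.17, adjusted p = 0.229). TRAP was below whole lung at both stages for Foxk1 and above it for Foxk2. Foxj3, a member expressed in most tissues, had 10.3 and 10.1 FPKM in TRAP and 12.9 and 12.1 in whole lung (log2 -0.27, adjusted p = 0.130). Foxj2 had 6.04 and 12.4, and 4.70 and 6.89 (log2 0.53, adjusted p = 0.0513). Foxn3, known from cell cycle checkpoints, had 6.74 and 5.23 FPKM and 7.89 and 6.45 (log2 -0.23, adjusted p = 0.232).

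**Figure D2:**
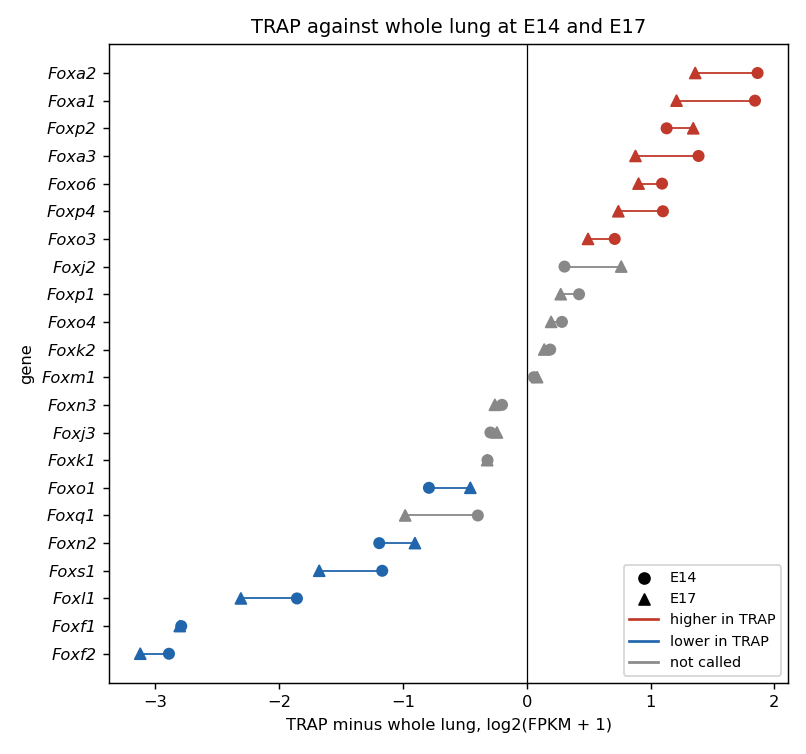
Log2 difference of TRAP minus whole lung, on log2(FPKM + 1), for the 22 tested Forkhead genes, with a circle for E14 and a triangle for E17. The 3 Foxa genes lie between 0.88 and 1.87 at either stage, and Foxf1 and Foxf2 between -2.79 and -3.12.

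When a library was left out, with no stage term so that a degree of freedom remained, none of these calls was kept, whichever of E14 TRAP, E14 whole lung, E17 TRAP or E17 whole lung was missing (limma, adjusted p from 0.0660 to 0.585, with Foxs1 under the filter without E17 whole lung). The differences stayed about as large, at -2.71 to -2.89 for Foxf1, 1.30 to 1.75 for Foxa1 and 1.41 to 1.82 for Foxa2, with 1 library alone in its fraction. Between 4 and 6 members in each direction then had an unadjusted p under 0.05, and at most 8 of all records passed in a direction. Rescaled to a common FPKM total, which moved the median of all records to -0.31, 5 members were higher and 8 lower, and 553 and 3026 of all records, against 2910 and 2105 as deposited.

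The stage comparison asked which members changed from E14 to E17 in both fractions. It used the same 4 libraries, with fraction as a term, so it shares its samples with the comparison above, and its p-values measure how far the fractions disagree. Of 22 tested members 3 were higher at E17, 1 was lower and 18 did not pass. The called share was 18.2%, where 15.9% of all records passed (9.51% higher and 6.36% lower). The median log2 difference was 0.05 over the members and 0.01 over all records. The member share lay near that of all records. Without the fraction term, and with any of the 4 libraries then left out (chosen after seeing the data), no member passed by limma (adjusted p of the 4 called members at least 0.835), at an unadjusted p under 0.05 at most 1 did. Limma-voom, which kept the fraction term, called 2 higher. With a common total 533 and 628 records, and without short records 1180 and 1436, were higher and lower, against 1172 and 783 as deposited.

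Foxq1, an epithelial forkhead gene known from the stomach surface, went from 0.242 to 1.11 FPKM in TRAP and from 0.634 to 3.18 in whole lung (log2 1.06, SE 0.24, adjusted p = 0.0432). It passed the filter only through the E17 libraries, and with no filter the call was lost (adjusted p = 0.356, within 0.00124 to 0.999 over its alternatives). Foxq1 was the only member to double as FPKM + 1 in a fraction, in whole lung, where 4.90% of records doubled and 1.31% halved. None of 21 members doubled or halved in TRAP, where 4.84% and 1.94% of records did. Foxf2 went from 4.33 to 6.08 FPKM and from 38.5 to 60.7 (log2 0.53, adjusted p = 0.0436), while its relative Foxf1 went from 13.9 to 12.2 and from 103 to 91.3 (log2 -0.17, adjusted p = 0.270). The ratio of Foxf1 to Foxf2 thus read 2.66 at E14 and 1.51 at E17 in whole lung, and 3.22 and 2.01 in TRAP. Foxj2, a broadly expressed member, went from 6.04 to 12.4 FPKM in TRAP and from 4.70 to 6.89 in whole lung (log2 0.70, adjusted p = 0.0472). The Foxj2 call held in 3 of 13 alternatives (adjusted p from 0.00228 to 1), the Foxf2 call in 4 of 13 (0.0369 to 1), and the Foxk2 call in 5 of 13 (0.00201 to 1). Foxk2 fell in both fractions, from 39.6 to 28.2 and from 34.6 to 25.4 FPKM (log2 -0.45, adjusted p = 0.0389).

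For the Foxa genes the fractions differed in sign, without passing a test. From E14 to E17, Foxa1 read lower in TRAP (133 and 117 FPKM) and higher in whole lung (36.3 and 50.1), and Foxa2 did the same (88.8 and 82.9 against 23.6 and 31.7). The TRAP change minus the whole lung change was -0.63 on the log2 scale for Foxa1 (SE 0.14, adjusted p = 0.120) and -0.50 for Foxa2 (SE 0.09, adjusted p = 0.0813). This was tested in a fit of all 8 libraries, which assumes that a lone library varies like the E16 replicates. None of 21 members passed it by limma, 6 had an unadjusted p under 0.05, and 0.914% of 12248 records passed. The summed level of the 12 epithelial markers was 570.0 and 1007 FPKM in whole lung at E14 and E17, and 2624 and 2823 in TRAP, and its part in these values was not tested.

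The E16 wild-type TRAP libraries did not always lie between the E14 and E17 values. Foxa1 read 89.6 and 78.4 FPKM at E16, below both flanking TRAP libraries, whereas Foxa2 read 88.7 and 90.9. The ratio of Foxa1 to Foxa2 was accordingly 1.01 and 0.863 at E16, against 1.50 at E14 and 1.41 at E17. Foxf1, at 6.16 and 8.95 FPKM, was also below both flanking values. No test across these stages was made, since stage and the set of libraries cannot be told apart.

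**Figure D3:**
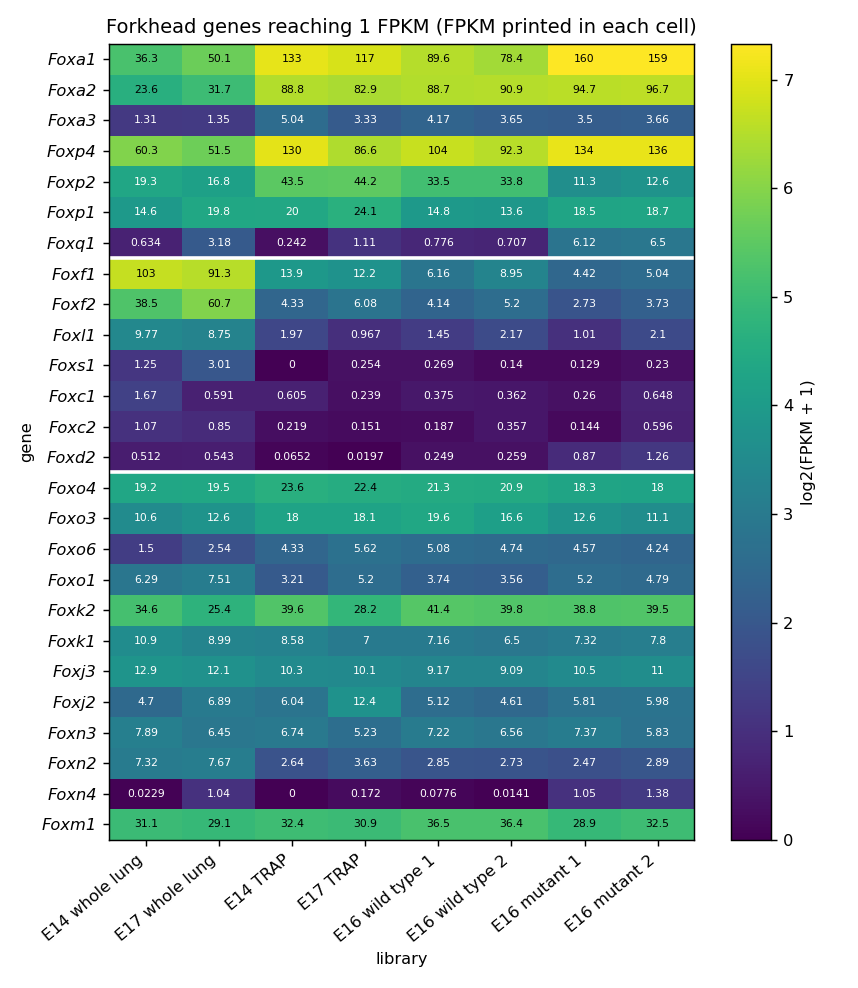
FPKM of the 26 Forkhead genes that reached 1 FPKM, by gene (rows) and library (columns), coloured by log2(FPKM + 1). White lines separate genes listed as epithelial, as mesenchymal, and the rest; Foxa1, Foxa2 and Foxp4 are brightest in TRAP, and Foxf1 and Foxf2 in whole lung at 103 and 91.3, and 38.5 and 60.7 FPKM.

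The comparison of Sox9 mutant with wild-type TRAP at E16 bears on how Forkhead mRNAs differ with a mutation of Sox9, whose protein marks the distal tips of the branching airway. Of 21 members tested, 5 were higher in the mutant (Foxq1, Foxa1, Foxp4, Foxp1 and Foxo1), 5 were lower (Foxp2, Foxo3, Foxf1, Foxm1 and Foxo4) and 11 did not pass. That is 47.6%, where 31.6% of 11872 records passed (17.4% higher and 14.3% lower). The median log2 difference was -0.05 over the members and 0.01 over all records. The number called higher was 3 without wild-type replicate 2, and the number called lower was 3 without wild-type replicate 1, 2 without wild-type replicate 2 and 2 without mutant replicate 1. Scaling shifted the balance: 2063 records were higher and 1692 lower as deposited, 1749 and 2336 after centring on the median, 167 and 57 with a common total and 2699 and 1253 with a common total without short records. The members split 5 and 5 after centring, 1 and 0 with the common total, where only Foxq1 was called, and 8 and 3 without short records.

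Of the tested members, Foxq1 and Foxp2 differed most on log2(FPKM + 1). Foxp2 had wild-type values of 33.5 and 33.8 FPKM and mutant values of 11.3 and 12.6. The mutant values were far below the wild-type values, with means of 11.9 ± 0.968 against 33.6 ± 0.182 FPKM (SD, n = 2 each), a 2.82-fold drop (log2 -1.42, SE 0.07, adjusted p = 0.000132). On fragments inferred from the deposited bounds the drop was smaller, from 1668.9 and 1873.4 to 1165.8 and 1176.8 (limma-voom log2 -0.63, adjusted p = 0.000458). These fragments take the deposited error to be counting error alone, which was not tested. In replicate 1, Foxk2 went from 41.4 to 38.8 FPKM and from 4589.4 to 5111.0 fragments. Fragments per FPKM thus rose more for Foxp2 than for Foxk2, and the smaller drop cannot be taken as a separate measure of the change. Foxq1 had wild-type values of 0.776 and 0.707 FPKM, on 46.7 fragments each, and mutant values of 6.12 and 6.50, on 434.3 and 394.0 fragments. Its mean was 8.51-fold higher in the mutant, at 6.31 ± 0.269 against 0.741 ± 0.0489 FPKM (log2 2.07, SE 0.09, adjusted p = 0.000101). It passed the filter through the mutant, and with no filter the call held (adjusted p = 0.0278, within 5.63e-06 to 0.0278 over its alternatives). The mutant level of Foxq1 also lay above that of E17 whole lung, 3.18 FPKM. Foxp2 and Foxq1 were each changed in the same direction in 2 of 2 mutant libraries. With 1 of the 4 libraries left out, the log2 difference was -1.35 to -1.50 for Foxp2 and 2.03 to 2.11 for Foxq1.

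Within a subfamily, members differed in whether they were called. Foxa1 went from 89.6 and 78.4 FPKM to 159.9 and 158.6 in the mutant, 1.90-fold higher (log2 0.92, SE 0.07, adjusted p = 0.000540). By limma the call was lost with no filter (adjusted p = 0.0533) and with a common total (0.782). These wild-type values lay below those of E14 and E17 TRAP, 133 and 117 FPKM. Foxa2 read 88.7 and 90.9 against 94.7 and 96.7 FPKM, a difference that did not pass (log2 0.09, SE 0.05, adjusted p = 0.183), although its groups did not overlap. Groups of 2 libraries separate easily: those of Foxk2 did at a log2 of -0.05, and the share over all records was not counted. Separation is therefore given as a description only, here and below. Foxa1 stood near Foxa2 in the wild type, at ratios of 1.01 and 0.863, and above it in the mutant, at 1.69 and 1.64. Foxa3 stayed low, at 4.17 and 3.65 against 3.50 and 3.66 FPKM with groups that overlapped (log2 -0.10, adjusted p = 0.450).

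The Foxp genes went opposite ways. While Foxp2 dropped, Foxp4 rose from 103.6 and 92.3 FPKM to 134 and 136 (1.38-fold, log2 0.46, SE 0.07, adjusted p = 0.00442), a call that limma-voom on inferred fragments lost (log2 0.20, adjusted p = 0.139, with 0.00119 to 0.858 over all its alternatives). Foxp1 rose from 14.8 and 13.6 FPKM to 18.5 and 18.7 (1.31-fold, log2 0.37, adjusted p = 0.00881). Neither pair of groups overlapped, which is a description only. Foxp4 exceeded Foxp2 by 3.09-fold and 2.74-fold in the wild type and by 11.9-fold and 10.8-fold in the mutant. In inferred fragments, which are not scaled by length, the ratios were 2.13 and 1.81 in the wild type and 3.47 and 3.53 in the mutant, so the size of this shift depended on the measure. Those fragments take the deposited error as counting error alone, which was not tested. The Foxp1 call was lost without wild-type replicate 2 (log2 0.31, adjusted p = 0.0633, with 0.00383 to 0.858 over all its alternatives). The summed level of the 12 epithelial markers was 2324 and 2305 FPKM in wild-type libraries, with 3127 and 3014 for the mutant, with 10 markers called higher and 1 lower, and its part in the changes of Foxa1, Foxp1 and Foxp4 was not tested.

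Of the Foxo genes, Foxo3 fell from 19.6 and 16.6 FPKM to 12.6 and 11.1, a 1.52-fold drop (log2 -0.57, SE 0.10, adjusted p = 0.00967). By limma that call was lost with no filter (adjusted p = 0.148) and with a common total (0.906). Foxo4 fell slightly, from 21.3 and 20.9 to 18.3 and 18.02 FPKM (log2 -0.20, adjusted p = 0.0351, but 0.23 with a common total, or -0.18 relative to all records), and Foxo1 rose from 3.74 and 3.56 to 5.20 and 4.79 (log2 0.37, adjusted p = 0.0225). The groups of these 3 genes did not overlap. Nor did those of Foxo6, at 5.08 and 4.74 against 4.57 and 4.24, which did not pass (log2 -0.13, adjusted p = 0.281). Foxo4 was lost without wild-type replicate 1 (log2 -0.19, adjusted p = 0.161), wild-type replicate 2 (-0.22, 0.136), mutant replicate 1 (-0.21, 0.0749) or mutant replicate 2 (-0.19, 0.0900), within 0.0182 to 0.866 over its alternatives. Foxo1 was lost without wild-type replicate 1 (log2 0.40, adjusted p = 0.0736), wild-type replicate 2 (0.34, 0.113) or mutant replicate 1 (0.32, 0.0912), within 0.00417 to 0.858.

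Foxm1, which activates mitotic genes in dividing cells, fell from 36.5 and 36.4 FPKM to 28.9 and 32.5 (log2 -0.24, SE 0.07, adjusted p = 0.0440), where a common total gave 0.20, or -0.20 relative to all records. Foxf1 fell from 6.16 and 8.95 FPKM to 4.42 and 5.04 (log2 -0.56, SE 0.16, adjusted p = 0.0479), and Foxf2 read 4.14 and 5.20 against 2.73 and 3.73 without passing (log2 -0.43, adjusted p = 0.0818). Both wild-type values exceeded both mutant values for each of the 3 genes. Foxm1 was lost without wild-type replicate 1 (log2 -0.24, adjusted p = 0.157), wild-type replicate 2 (-0.24, 0.169) or mutant replicate 1 (-0.16, 0.115), within 0.0114 to 0.877 over its alternatives. Foxf1 was lost without wild-type replicate 2 (log2 -0.32, adjusted p = 0.140), mutant replicate 1 (-0.48, 0.113) or mutant replicate 2 (-0.64, 0.0511), within 0.0129 to 0.870. The summed level of the 12 mesenchymal markers was 286 and 356 FPKM in wild-type libraries, with 186 and 246 for the mutant, with 1 marker higher, 1 lower and 10 not called. Endothelial markers, 9 of 12 tested, had 2 lower and none higher (median log2 -0.58), with sums of 74.6 and 92.9 FPKM in wild-type libraries and 63.1 and 48.8 for the mutant. The part of either list in the Foxf1 value was not tested.

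Of the other members not called, Foxj3 came closest, at 9.17 and 9.09 FPKM in the wild type with 10.5 and 11.03 in the mutant (log2 0.21, adjusted p = 0.0530). Foxj2 had 5.12 and 4.61 with 5.81 and 5.98 (log2 0.24, adjusted p = 0.0782), and Foxk1 had 7.16 and 6.50 with 7.32 and 7.80 (log2 0.13, adjusted p = 0.262). The mutant values were above the wild-type values for these 3 genes. Foxk2 had 41.4 and 39.8 with 38.8 and 39.5 FPKM (log2 -0.05, adjusted p = 0.468). Foxl1 had 1.45 and 2.17 with 1.01 and 2.10, Foxn2 had 2.85 and 2.73 with 2.47 and 2.89, and Foxn3 had 7.22 and 6.56 with 7.37 and 5.83. The groups of Foxl1, Foxn2 and Foxn3 overlapped, with log2 differences of -0.16, -0.04 and -0.06.

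**Figure D4:**
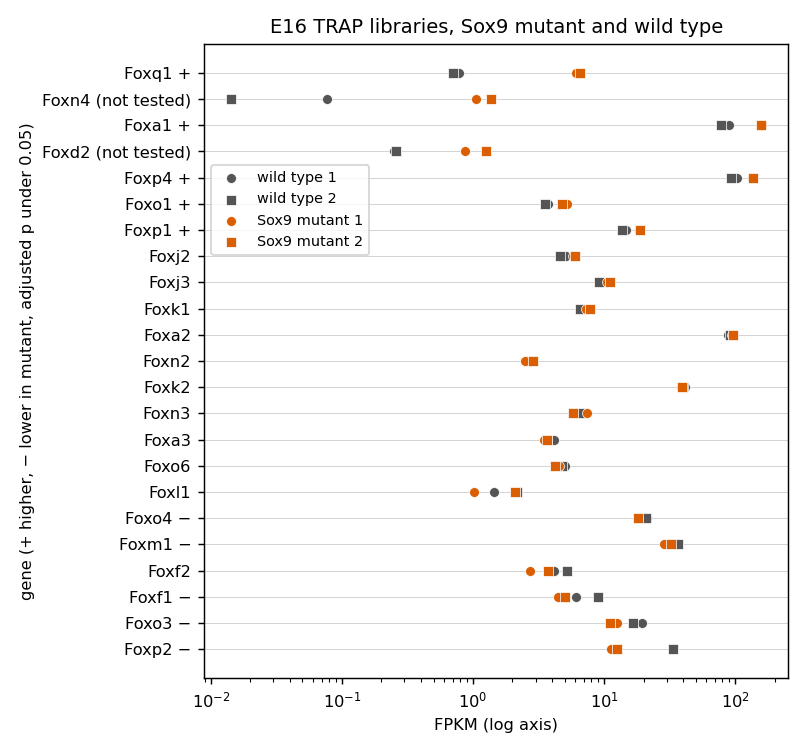
FPKM on a log axis for the 21 tested Forkhead genes and the untested Foxd2 and Foxn4 in the 2 wild-type (grey) and 2 Sox9 mutant (orange) E16 TRAP libraries, circles for replicate 1 and squares for replicate 2, ordered by log2 difference. Foxq1 sits at 0.776 and 0.707 FPKM for wild type and at 6.12 and 6.50 for mutant, and Foxp2 drops from 33.5 and 33.8 to 11.3 and 12.6 FPKM.

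Among the members below the filter, Foxn4 and Foxd2 stood out after their values were seen. Foxn4, known from retinal progenitors and from multiciliated cells of frog skin, read 0.0776 and 0.0141 FPKM in the wild type, on 5.0 and 1.0 fragments. In the mutant it read 1.05 and 1.38 FPKM, on 78.0 and 88.1 fragments. It was listed at 0 in E14 TRAP and at 0.0229 FPKM in E14 whole lung, and had 0.172 and 1.04 FPKM at E17. With no filter on low values its log2 difference in the mutant was 1.08 (adjusted p = 0.0553), and Foxd2, at 0.249 and 0.259 FPKM against 0.870 and 1.26, had 0.71 (adjusted p = 0.106). Of 8 listed multiciliated cell genes 6 were measured, their summed level was higher in the same mutant libraries, their wild-type sums were 16.6 and 14.4 FPKM and their mutant sums 38.4 and 36.7, and of 5 tested Ccno, Mcidas and Myb were called higher, where 17.4% of all records were. Tekt1 (log2 -0.28) and Rfx3 (0.0034) were not called. Their part in the Foxn4 value was not tested.

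Genes that act with Forkhead factors were read from lists chosen with earlier results of these data known. Of 12 partners and lung targets of the Foxa factors, 6 rose in the mutant, 2 fell and 4 did not pass (median log2 0.48), where 17.4% of all records were higher and 14.3% lower. Scgb3a2, a club cell secretoglobin (log2 3.29), and Sftpb, surfactant protein B (2.91), rose, while Sftpc, surfactant protein C (-4.60), fell. In TRAP against whole lung 9 of the 12 were higher, Sftpb (2.05), Sftpc (2.22) and Sftpa1 (1.60) among them, where 23.6% of all records were higher. Of 10 mitotic targets of Foxm1, 4 fell in the mutant and none rose, with Birc5 (-0.31), Cenpa (-0.31) and Aurkb (-0.24) the clearest, and the median was -0.13. Of 9 tested Foxo targets, 5 rose and none fell (median 0.24), led by the repressor gene Bcl6 (1.14), the thioredoxin inhibitor gene Txnip (0.68) and the cell cycle inhibitor gene Cdkn1b (0.33). Bcl6, at 0.949 and 1.04 FPKM in wild type and 3.50 and 3.32 in the mutant, passed the filter through the mutant. So did Sftpd among the Foxa targets, and both calls are given as a description only. Of 10 members of the NuRD complex, with which Foxp factors repress, Mta1 fell (-0.35) and 9 did not pass. The median over all records was 0.01 in this comparison of mutant with wild type.

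Hedgehog genes, which act upstream of Foxf1 and Foxl1, were found on both sides. Of 8 tested against whole lung, the ligand gene Shh was higher in TRAP (log2 1.66), 5 were lower, including the effectors Gli1 (-1.95) and Gli2 (-1.80), and 2 did not pass, where 17.1% of all records were lower. In the mutant, Shh rose (0.29), Gli1 (-0.61) and Gli3 (-0.34) fell and 3 of 6 did not pass, where 31.6% of all records were called. All 6 vascular genes listed as Foxf1 targets were lower in TRAP, with Pecam1 at -2.94, Cdh5 at -3.90 and Kdr at -3.12. Flt1, at 0.248 and 0.331 FPKM in TRAP against 2.65 and 3.73, passed the filter only through whole lung, so this count is a description only. In the mutant Cdh5 (-0.40, adjusted p = 0.124) and Pecam1 (-0.58, adjusted p = 0.144) were tested and did not pass.

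Members that lie side by side in the genome (mm10) had unlike levels. On chromosome 13, Foxq1 (31558170 to 31560974), Foxf2 (31625816 to 31631406) and Foxc1 (31806646 to 31810635) are separated by 64.8 and 175.2 kb. In E17 whole lung they read 3.18, 60.7 and 0.591 FPKM, and in the mutant Foxq1 rose while Foxf2 did not pass and Foxc1 read 0.260 and 0.648 against 0.375 and 0.362 FPKM. On chromosome 8, Foxf1 (121084386 to 121088154), Foxc2 (121116171 to 121118894) and Foxl1 (121127685 to 121130644) are separated by 28.0 and 8.8 kb. Foxf1 and Foxl1 were both lower in TRAP, and Foxc2 read lower there as well at both stages.

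Promoter sequences are shown as examples for Foxa1, which rose in the mutant, and for Foxo3, which fell. RefSeq (GRCm38.p6) gave a window of 250 bases before the start for 28 of the 43 members, in 33 windows, and for 32851 windows in all. Each was searched on both strands for the forkhead words TGTTTAC and TATTTAC and the SOX words ACAATG and ACAAAG. A forkhead word was found in 1 member window, that of Foxa1, and in 5.76% of all windows, and a SOX word in 9 of the 33 member windows and in 25.2% of all. Median GC content was 62% in member windows and 52.4% in all. Capitals mark the words, on the strand of the gene.
Foxa1, chr12:57546112-57546361, minus strand: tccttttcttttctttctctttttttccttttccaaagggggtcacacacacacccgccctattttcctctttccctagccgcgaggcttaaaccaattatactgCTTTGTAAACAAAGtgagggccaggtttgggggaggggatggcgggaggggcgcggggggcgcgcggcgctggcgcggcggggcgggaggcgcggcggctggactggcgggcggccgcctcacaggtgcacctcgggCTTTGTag
Foxo3, chr10:42276696-42276945, minus strand: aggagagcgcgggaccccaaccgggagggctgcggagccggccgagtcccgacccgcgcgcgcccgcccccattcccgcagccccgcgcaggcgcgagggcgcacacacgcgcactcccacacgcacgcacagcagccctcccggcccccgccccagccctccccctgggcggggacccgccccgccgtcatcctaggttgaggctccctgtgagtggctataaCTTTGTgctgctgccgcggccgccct
In the Foxa1 window the forkhead word, 141 bases before the start, overlaps SOX words at 145 and 137 bases, and a further SOX word lies 8 bases before the start. The Foxo3 window holds a SOX word 26 bases before the start. These starts are those of RefSeq. The deposited records of Foxa1 and Foxo3 reach to 57546121 and 42276742, past the near end of each window. By those records the SOX words at 8 and 26 bases lie inside the genes. A match of letters describes the window, and binding was not measured. Among other members called in the mutant, the Foxp1 windows held SOX words too, and the windows of Foxp4 and Foxo1 held none. Among tested members not called, a window of Foxa2 held a SOX word, and those of Foxa3, Foxf2, Foxj2, Foxj3, Foxk2 and Foxn3 held none. Whether such words go with a call was not tested. Of the called members, Foxp2, Foxq1, Foxf1, Foxm1 and Foxo4 had no window.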

How the data were processed

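Each library's deposited file gives 24487 records with FPKM and confidence bounds, per the file headers. TopHat2 2.0.14, Bowtie2 2.2.3, Cufflinks 2.2.1, Cuffnorm and the build mm10 are named in the submitters' processing notes; how the authors set the library totals is not stated there. Values were used as deposited. Tables were joined by symbol and locus, since their row order differs, and 1 was added to starts. Fragments were inferred by dividing FPKM by its standard error (the upper bound lies 2 of these above it) and squaring. This takes the standard error to be counting error alone, which was not tested. Limma 3.58.1 (R 4.3.3) was fitted to log2(FPKM + 1), which understates the change of low genes, with eBayes and a trend. Records averaging 1 FPKM or more in a fit entered it, and tests were two-sided, with Benjamini-Hochberg adjustment over all of them at 0.05. The mutant fit used the 4 E16 libraries (2 residual degrees of freedom, 3.73 prior). The fraction and stage fit used the 4 E14 and E17 libraries (1 residual, 4.47 prior). The steps were tested on simulated data.

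The members and lists were chosen with earlier results of these data known. Members called or reaching 5 FPKM were named with all values, members reaching 1 FPKM more briefly, and from each list up to 3 genes with the smallest p. Alternatives changed the pseudocount, the filter, the scaling, the samples and the model. The replicates were not the same library: set against counting error, the mean squared difference came to 5.44 for the wild-type pair and 7.33 for the mutant pair, where a wild-type and a mutant library gave 53.99.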

Additional observations from a re-analysis of the deposited data

How the results depend on the processing

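In the mutant, 5 members were called higher and 5 lower. Without a filter these counts were 1 and 2, with a filter of 5 FPKM 3 were higher, after rescaling to a common total 1 and 0 (0 lower also at an unadjusted p under 0.05; limma-voom called 5 lower), after that rescaling without records under 200 bases 8 and 3, and in a fit of all 8 libraries 3 were lower. Leaving out a replicate gave 3 to 5 higher and 2 to 4 lower. The common total moved the median of all records to 0.41, Foxm1 to 0.20 and Foxo4 to 0.23, or -0.20 and -0.18 relative to that median; only Foxq1 was then called. With the replicate number as a block in limma 5 and 5 were called (Foxo4 lost, adjusted p = 0.0612, and Foxf2 gained, 0.0209), and Foxf1 went from 0.0479 to 0.0142. Same-numbered deviations correlated at 0.007 over 11872 records, which cannot exclude pairing for a smaller set of genes. Foxf1, Foxf2, Foxl1, Col1a1 and Acta2 read higher in replicate 2 in both genotypes, while Cldn5 and Pecam1 did so only in the wild type. Whether the numbers pair the libraries is not settled.

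For TRAP against whole lung, 7 were higher and 6 lower. With no filter the counts were 0 and 0 (9 and 11 at an unadjusted p under 0.05; limma-voom called 8 and 8), with no stage term 3 and 3, and in a fit of all 8 libraries 11 were higher; leaving out a library gave 0 in either direction. For the stage comparison, 3 were higher and 1 lower. With no filter it was 0 and 0 (2 and 3 unadjusted), with a filter of 5 FPKM 1 higher, with centring 1 higher, with a common total 1 and 0 (4 lower unadjusted), without short records 2 lower, by limma-voom 0 lower (1 unadjusted), and with all 8 libraries 7 and 3. Without the fraction term the counts were 0 and 0, also with a library left out (0 to 0; chosen after seeing the data). Such fits weigh the fractions unequally between stages, and Foxf2 then read -0.92 without E14 TRAP and -1.04 without E17 whole lung, but 1.97 without E14 whole lung and 2.09 without E17 TRAP. Without a filter the prior degrees of freedom were 0.629 in the mutant fit and 0.702 in the other. Over all records, the mutant counts were 685 and 502 without a filter, and 1326 and 882 without wild-type replicate 1 or 1166 and 722 without replicate 2. Those for TRAP were 2910 and 2105, 0 and 0 without a filter, and 159 and 415 without a stage term. The common total moved the median of the stage comparison to -0.23. Depth limits Foxs1, Foxn4 and the Foxc and Foxd genes, which rest on few fragments.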
